A study of Mus musculus with 24 samples.

Results

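A set of 4 genes of bone morphogenetic protein (BMP) signalling was followed in cells sorted from mouse embryoid bodies, the aggregates that embryonic stem cells form as they differentiate. They were Bmp4 and Bmp5, which encode secreted BMP ligands, Smad1, which encodes a transducer of the signal, and Nog, which encodes the secreted antagonist Noggin. A probe was taken when the array platform's annotation names only one gene for it and that gene is among the 4. This gave 5 of the 20280 probes, 2 for Smad1 and 1 for each of the others, and 4 of the 8973 named genes.

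The cells had been sorted by Flk1, the receptor for vascular endothelial growth factor that Kdr encodes, into Flk1+ and Flk1- cells. Each sort was sampled at 84 h, 95 h and 8 d of differentiation, with 4 arrays in each of the 6 groups and 24 arrays in all. The groups are therefore Flk1+ and Flk1- cells at 84 h, Flk1+ and Flk1- cells at 95 h, and Flk1+ and Flk1- cells at 8 d. No genotype, stem cell line, gating threshold or added factor is given in the sources used here, so nothing but the sort and the time separates the groups by their labels. On every array the sample, in Cy5, shared the slide with a common reference, RNA of whole mouse pups in Cy3. The labels number the arrays of a group without saying that they came from separate cultures, so each p-value reflects only how far these arrays spread, and that spread may be technical. An embryoid body is a mixture in culture and not an embryo, and each array averages over many cells: fewer cells of a type and less RNA per cell cannot be told apart.

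BMP ligands bind pairs of type I and type II serine/threonine kinase receptors. The activated type I receptor phosphorylates SMAD1, SMAD5 and SMAD9, which join SMAD4, enter the nucleus and change the transcription of targets such as the Id and Msx genes. Noggin binds ligands outside the cell and keeps them from their receptors. In the mouse embryo BMP4 is needed for mesoderm to form, and Flk1 marks the mesoderm from which endothelial and blood cells arise.

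Values below are log2 ratios of sample over reference with each array's median set to 0. The log base and direction of the deposited values are not given in the sources used here. The direction was read as Cy5 over Cy3 because 5 of 5 pluripotency genes lay above 0 (median 0.65). Of 5 smooth muscle and fibroblast genes 0 did (median -1.43). These signs do not show the log base, and log2 was assumed. A gene was called when limma's adjusted p over all 17440 features was under 0.05. One fit held all 24 arrays, so the SE of a difference draws on the spread of all 6 groups, also of those not compared. Each difference is Flk1+ minus Flk1-, or the later time minus the earlier, and folds assume the log2 reading. Errors after a mean are the SD of 4 arrays, and errors after a difference are the standard error (SE) of the fit. Each probe's ratio is relative to the same gene in pups, so no gene's level can be set against another's.

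The gene used for sorting, Kdr, exceeded its Flk1- level in Flk1+ cells at each time, by 1.91 at 84 h, 2.93 at 95 h and 1.89 at 8 d (limma adjusted p = 1.388e-05, 1.003e-07 and 0.000155). On the first 2 principal components over all features, 3 arrays of 84 h stood apart from their groups: arrays 2 and 4 of Flk1+ cells and array 4 of Flk1- cells. In the Flk1+ group at 84 h Kdr itself was 0.04 and 0.67 on arrays 2 and 4, against 1.80 and 1.43 on arrays 1 and 3. Correlations between arrays of a group were as low as 0.59 in Flk1+ cells at 84 h and at least 0.925 in both sorts at 8 d. The called results of the 4 genes that use 84 h, and those of the wider BMP pathway named below, are therefore given with and without these 3 arrays. Without them the 84 h groups hold only arrays 1 and 3 of Flk1+ cells and arrays 1 to 3 of Flk1- cells. Calls without the 3 arrays therefore lean on the spread of the other groups. Cell type markers are given with all arrays only.

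The promoter bases of the genes whose levels differed between the sorts are shown because they let the sequence upstream of each start be read beside its levels. They are the 250 bases before the RefSeq start on GRCm38.p6, 5′ to 3′ on the gene's own strand, in lower case with each CG dinucleotide in capitals. RefSeq's promoter table matched 3 of the 4 genes, and Nog is named only.
Bmp4, chr14:46390670-46390919, minus strand: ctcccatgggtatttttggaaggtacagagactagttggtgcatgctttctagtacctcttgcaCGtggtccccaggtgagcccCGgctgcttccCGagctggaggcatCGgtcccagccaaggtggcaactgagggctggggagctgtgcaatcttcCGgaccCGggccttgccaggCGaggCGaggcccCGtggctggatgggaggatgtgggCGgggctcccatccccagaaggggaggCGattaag
Bmp5, chr9:75775115-75775364, plus strand: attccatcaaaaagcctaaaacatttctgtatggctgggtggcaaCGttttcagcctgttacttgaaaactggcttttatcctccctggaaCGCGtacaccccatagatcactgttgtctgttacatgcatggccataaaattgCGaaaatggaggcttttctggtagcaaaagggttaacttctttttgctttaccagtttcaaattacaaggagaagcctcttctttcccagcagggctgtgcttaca
Smad1, chr8:79399429-79399678, minus strand: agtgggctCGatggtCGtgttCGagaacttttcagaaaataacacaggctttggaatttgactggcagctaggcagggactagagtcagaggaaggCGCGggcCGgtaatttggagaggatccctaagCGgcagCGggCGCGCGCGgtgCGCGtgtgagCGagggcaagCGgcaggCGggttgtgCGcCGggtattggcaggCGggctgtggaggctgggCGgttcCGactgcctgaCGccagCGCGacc

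The promoter windows differed in base composition. The Smad1 window held 25 CG dinucleotides and 63.6% G or C, and 90.4% of the 32851 windows of the same length held no more CG. Bmp4 had 11 CG and 63.2% G or C, while Bmp5 had 4 CG and 42.8%, against a median of 6 CG over all windows. Motifs were searched on both strands, with a position read on both strands counted once and with overlaps between motifs allowed. The palindrome GGCGCC, known from SMAD-bound elements of BMP targets, is in 9.6% of all windows, and the GATA motif AGATAA in 10%. The E-box CANNTG is in 66.2%, the TATA box TATAAA in 12.4% and the T-box motif TCACACCT in 1.1%. The Bmp4 window held 3 E-box matches, and these were the only matches in the 3 windows. A match describes letters, and no match says only that these letters are not in the window.

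Bmp4, Bmp5 and Smad1, 3 of the 4 genes, were called higher in the Flk1+ sort at both 84 h and 95 h, and none of the 4 was called at 8 d. Nog was not called between the sorts at any time. At 84 h 13.5% of all features were called and 5.3% were called higher in Flk1+ cells. At 95 h 2.03% were called and 0.659% were called higher, and at 8 d 0.373% were called, 0.149% higher. The median difference of the 4 genes was 0.70 at 84 h, 0.78 at 95 h and 0.01 at 8 d, beside medians over all features of 0.0041, -0.0035 and 0.0067. The 4 genes were chosen with earlier results of these data known. Their counts and medians therefore describe them and do not test them against all features.

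**Figure D1:**
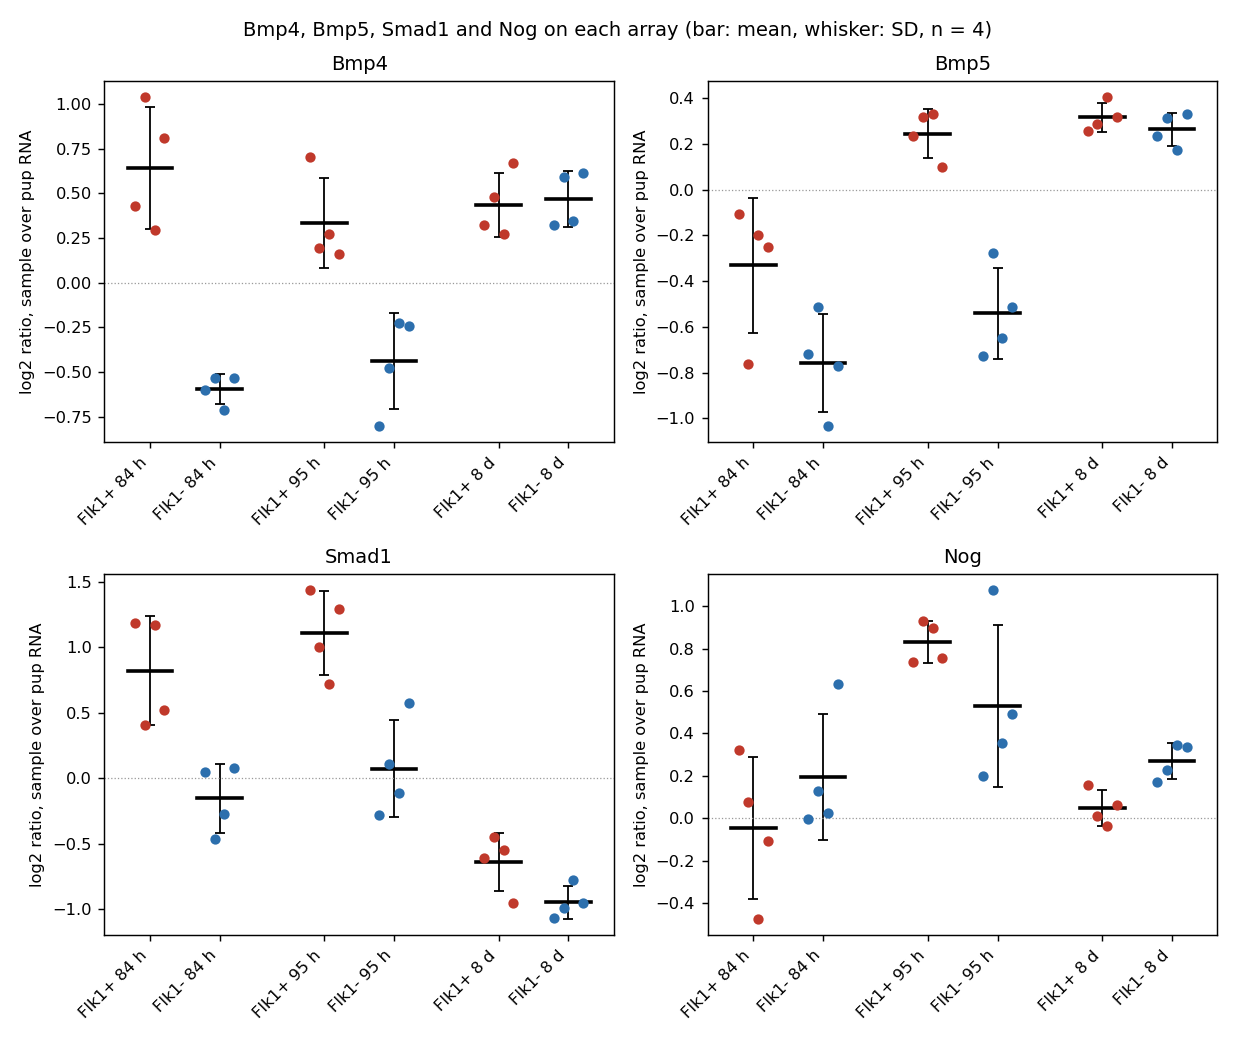
Log2 ratio of sample over reference (vertical axis) on each of the 24 arrays for Bmp4, Bmp5, Smad1 and Nog, by sort and time; points are arrays, bars are group means and whiskers are SDs (n = 4). At 95 h the 4 Flk1+ arrays of Bmp4, Bmp5 and Smad1 lie above the 4 Flk1- arrays, and at 8 d the sorts overlap for these 3 genes.

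Bmp4, the ligand best known for inducing mesoderm, showed its largest gap between sorts at 84 h. Flk1+ arrays 1 to 4 read 0.43, 1.04, 0.29 and 0.81 at 84 h, against -0.60, -0.53, -0.71 and -0.54 in Flk1- cells. All Flk1+ arrays were above 0 and all Flk1- arrays below it. The difference was 1.24 (SE 0.16, 95% interval 0.91 to 1.57), a 2.36-fold higher ratio in Flk1+ cells (limma adjusted p = 2.513e-05). At this time 17.4% of all features had arrays that did not overlap between the sorts, as Bmp4 and Smad1 did. Without the 3 arrays that stood apart the Bmp4 difference was 0.98 (limma adjusted p = 0.001868). The change of the gap from 84 h to 95 h was -0.47 and was not called (limma adjusted p = 0.3244), and without the 3 arrays it was -0.21 (limma adjusted p = 0.8067).

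At 95 h Bmp4 read 0.70, 0.20, 0.27 and 0.16 in Flk1+ cells, against -0.80, -0.48, -0.23 and -0.24 in Flk1- cells. The sorts again did not overlap, which held for 4.81% of all features at 95 h, although the lowest Flk1+ arrays and highest Flk1- arrays were closer together than at 84 h. Here the difference was 0.77 (SE 0.16, 95% interval 0.44 to 1.10), or 1.71-fold (limma adjusted p = 0.008239). The call was lost when only the 8 arrays compared were fitted (0.77, limma adjusted p = 0.1222) and with array quality weights (0.61, limma adjusted p = 0.08341).

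By 8 d the Bmp4 arrays of the sorts were mixed. Flk1+ cells read 0.33, 0.48, 0.27 and 0.67, against 0.32, 0.59, 0.34 and 0.61 in Flk1- cells, and the means were 0.44 ± 0.18 and 0.47 ± 0.16 (SD, n = 4 each). The difference of -0.03 had a 95% interval of -0.36 to 0.30 (limma adjusted p = 0.9999). That interval does not reach the difference seen at 95 h.

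Between 95 h and 8 d Bmp4 was called in Flk1- cells. Its mean there was 0.47 ± 0.16 at 8 d and -0.44 ± 0.27 at 95 h (SD, n = 4 each), with all 8 d arrays above all 95 h arrays, as 27.8% of all features did not overlap in this comparison. This was a rise of 0.91 (SE 0.16), or 1.87-fold (limma adjusted p = 0.0003009). In Flk1+ cells the same comparison gave 0.10 (limma adjusted p = 0.704). The change of the gap between the sorts over that interval, tested as an interaction, was -0.80 (SE 0.23) and was not called (limma adjusted p = 0.1556), so the sorts are not shown to differ in their change. Without the 3 arrays of 84 h it was -0.80 and was called (limma adjusted p = 0.04024). Those arrays are not part of this comparison, and leaving them out lowered the SE, which all groups share, to 0.19. Kdr itself gained 0.77 in Flk1- cells from 95 h to 8 d (limma adjusted p = 0.02483), and its part in the rise of Bmp4 was not tested.

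Bmp5, a ligand closely related to Bmp6 and Bmp7, had a smaller gap between the sorts at 84 h than at 95 h, though that change was not called. Its Flk1+ arrays read -0.11, -0.76, -0.20 and -0.25 at 84 h, against -0.72, -0.51, -1.03 and -0.77 in Flk1- cells. Array 2 of Flk1+ cells, one of those that stood apart, lay within the Flk1- arrays, and the groups overlapped. The difference was 0.43 (SE 0.13, 95% interval 0.16 to 0.70; limma adjusted p = 0.0358), and without the 3 arrays it was 0.60 (limma adjusted p = 0.01041). The call was lost without Flk1+ array 1, 3 or 4 (0.35, 0.38 and 0.40), without Flk1- array 1, 3 or 4 (0.44, 0.34 and 0.42), and with a fit of the 8 arrays compared (limma adjusted p = 0.224).

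At 95 h the Bmp5 sorts no longer overlapped. Flk1+ arrays read 0.24, 0.32, 0.33 and 0.10, against -0.73, -0.28, -0.65 and -0.51 in Flk1- cells. The difference of 0.79 (SE 0.13, 95% interval 0.52 to 1.06) was 1.72-fold (limma adjusted p = 0.001015). At 8 d the arrays were 0.26, 0.29, 0.40 and 0.32 in Flk1+ cells, against 0.24, 0.31, 0.18 and 0.33 in Flk1- cells. They were interleaved, with a difference of 0.05 (95% interval -0.22 to 0.32; limma adjusted p = 0.9999).

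The interval in which a rise of Bmp5 was called was 84 h to 95 h in Flk1+ cells and 95 h to 8 d in Flk1- cells. In Flk1+ cells its 95 h level exceeded the 84 h level by 0.58 (SE 0.13), or 1.49-fold (limma adjusted p = 0.007107). The arrays did not overlap, as for 13.2% of all features in this comparison, and the 8 d level differed from the 95 h level by 0.07 (limma adjusted p = 0.7548). The first of these was not called without the 3 arrays (0.40, limma adjusted p = 0.0785), with only the 8 arrays compared (limma adjusted p = 0.2178) or with array quality weights (0.41, limma adjusted p = 0.1493). In Flk1- cells the 95 h minus 84 h difference was 0.22 (limma adjusted p = 0.4798), and 8 d exceeded 95 h by 0.80 (SE 0.13), or 1.75-fold (limma adjusted p = 0.0001163).
Neither change of the Bmp5 gap was called: it was 0.36 between 84 h and 95 h (limma adjusted p = 0.3402; without the 3 arrays 0.18, limma adjusted p = 0.7735) and -0.73 (SE 0.18) between 95 h and 8 d (limma adjusted p = 0.09009). The second was called without the 3 arrays of 84 h (limma adjusted p = 0.01475), without Flk1- array 2 of 95 h (-0.82, limma adjusted p = 0.03804), with only the arrays compared (limma adjusted p = 0.01716) and with array quality weights (limma adjusted p = 0.03166). The 3 arrays of 84 h are not part of this second change, and without them its SE was 0.15.

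**Figure D2:**
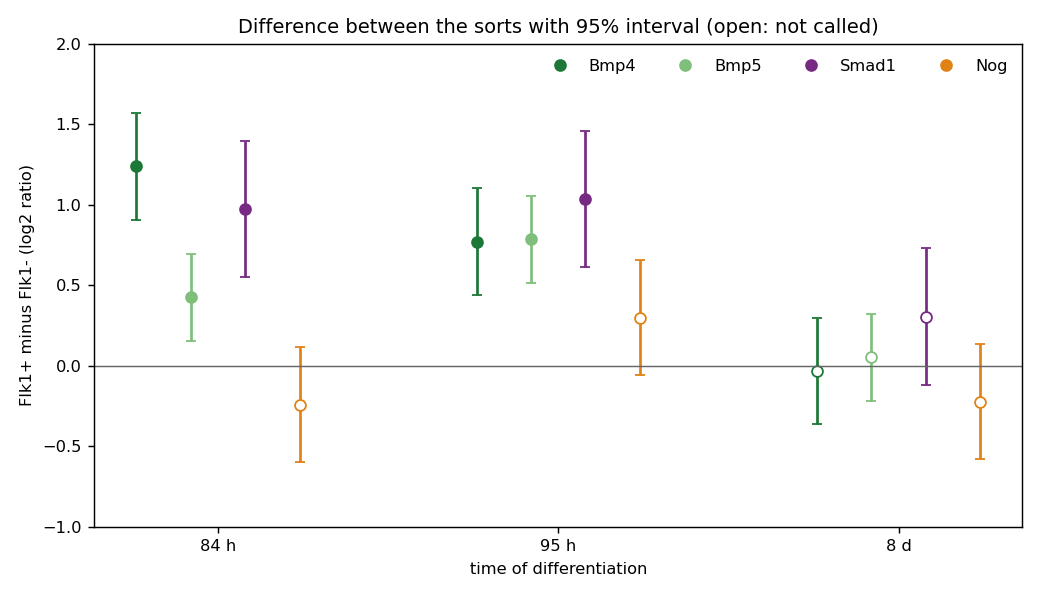
Flk1+ minus Flk1- difference in log2 ratio (points, with 95% intervals as whiskers) of the 4 genes at 84 h, 95 h and 8 d, with open points for differences that were not called. Intervals for Bmp4, Bmp5 and Smad1 exclude 0 at 84 h and 95 h and include it at 8 d, and those for Nog include 0 at all 3 times.

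Smad1, a receptor-activated SMAD that carries BMP signals to the nucleus, was higher in Flk1+ cells at the early times and fell in both sorts by 8 d. At 84 h the mean of its 2 probes was 1.19, 0.41, 1.17 and 0.52 on Flk1+ arrays, against 0.05, -0.47, -0.28 and 0.07 on Flk1- arrays. The groups did not overlap, and arrays 2 and 4 were the lowest Flk1+ ones. The difference was 0.98 (SE 0.20, 95% interval 0.55 to 1.40), or 1.97-fold (limma adjusted p = 0.004015), and it was 1.41 without the 3 arrays (limma adjusted p = 0.0006637).

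At 95 h Smad1 read 1.43, 1.00, 0.72 and 1.29 in Flk1+ cells, against -0.28, 0.11, -0.12 and 0.57 in Flk1- cells. The lowest Flk1+ array lay above the highest Flk1- array. The difference of 1.04 (SE 0.20, 95% interval 0.62 to 1.46) was called (limma adjusted p = 0.005205), and the change of the gap between these times was 0.06 (limma adjusted p = 0.9243). That change was -0.37 without the 3 arrays and was likewise not called (limma adjusted p = 0.7127). A fit of only the 8 arrays compared lost the calls at 84 h (limma adjusted p = 0.06709) and 95 h (limma adjusted p = 0.08344), and array quality weights lost the one at 95 h (0.78, limma adjusted p = 0.1283).

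By 8 d Smad1 had fallen in both sorts. Flk1+ arrays read -0.61, -0.45, -0.55 and -0.96, against -1.07, -0.99, -0.78 and -0.95 in Flk1- cells. Only array 4 of Flk1+ cells reached into the Flk1- range, yet the difference of 0.31 (95% interval -0.12 to 0.73) was not called (limma adjusted p = 0.9999), except with array quality weights (0.36, limma adjusted p = 0.02996). From 95 h to 8 d the level dropped by 1.75 (SE 0.20), a 3.36-fold lower ratio, in Flk1+ cells (limma adjusted p = 1.557e-06). In Flk1- cells it dropped by 1.02 (SE 0.20), or 2.02-fold (limma adjusted p = 0.00109). The interaction was -0.73 (SE 0.29) and was not called (limma adjusted p = 0.4726).

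The Smad1 probes differed in spread. Probe 12154 read 1.07, 1.43, 1.18 and 1.21 in Flk1+ cells at 84 h, against -0.14, -0.44, -0.30 and 0.72 in Flk1- cells. Probe 3116 read 1.30, -0.62, 1.16 and -0.17 in Flk1+ cells, against 0.24, -0.50, -0.25 and -0.57 in Flk1- cells. The low Flk1+ readings came from arrays 2 and 4 on probe 3116 alone.

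On its own, probe 12154 was called between the sorts at 84 h (1.26, SE 0.20, limma adjusted p = 0.0003891) and at 95 h (0.95, limma adjusted p = 0.01151). Probe 3116 pointed the same way, with 0.69 at 84 h (SE 0.35, limma adjusted p = 0.1801) and 1.12 at 95 h (limma adjusted p = 0.1337), and was not called. Both probes were called lower at 8 d than at 95 h. Probe 12154 differed by -1.55 in Flk1+ and -0.94 in Flk1- cells, and probe 3116 by -1.95 and -1.09.

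**Figure D3:**
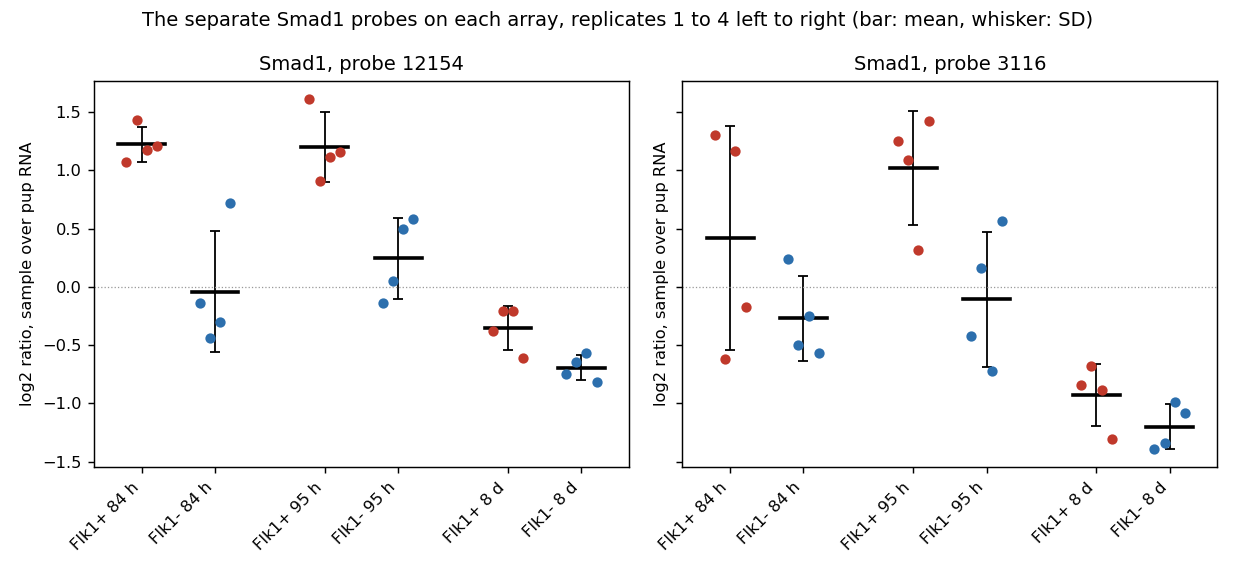
Log2 ratio of the 2 Smad1 probes on each array by sort and time; points are arrays, bars are means and whiskers are SDs (n = 4). At 84 h the 4 Flk1+ arrays of probe 12154 lie between 1.07 and 1.43, and arrays 2 and 4 of probe 3116 lie at -0.62 and -0.17.

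Nog, the gene for the BMP antagonist Noggin, was not called between the sorts at any time and had its highest group means at 95 h. At 84 h the arrays read 0.32, 0.08, -0.47 and -0.11 in Flk1+ cells, against -0.00, 0.13, 0.03 and 0.63 in Flk1- cells, and the groups overlapped. The difference was -0.24 (95% interval -0.60 to 0.11; limma adjusted p = 0.3376), and -0.13 without the 3 arrays (limma adjusted p = 0.8078). At 95 h the arrays were 0.73, 0.93, 0.90 and 0.76 in Flk1+ cells, against 0.20, 1.08, 0.35 and 0.49 in Flk1- cells. Only array 2 of Flk1- cells reached the Flk1+ level, and the difference of 0.30 (95% interval -0.06 to 0.66) was not called (limma adjusted p = 0.6148).

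At 8 d the Nog arrays were 0.16, 0.01, -0.04 and 0.06 in Flk1+ cells, against 0.17, 0.23, 0.35 and 0.34 in Flk1- cells. The groups did not overlap, by a narrow gap, and 15.9% of all features did not overlap at this time. The difference of -0.22 (95% interval -0.58 to 0.13) was not called (limma adjusted p = 0.9999). Fitting only the 8 arrays compared gave an SE of 0.06 in place of 0.17, and the difference was still not called (limma adjusted p = 0.06645).

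Within Flk1+ cells the Nog level at 95 h exceeded that at 84 h by 0.88 (SE 0.17), or 1.84-fold, with no overlap between arrays (limma adjusted p = 0.003246). It was 0.91 without the 3 arrays (limma adjusted p = 0.01165), and the call was lost when only the 8 arrays compared were fitted (limma adjusted p = 0.1534). It then dropped by 0.78 (SE 0.17), or 1.72-fold, between 95 h and 8 d (limma adjusted p = 0.002059). In Flk1- cells the 95 h minus 84 h difference was 0.33 (limma adjusted p = 0.389) and the 8 d minus 95 h difference -0.26 (limma adjusted p = 0.3329), neither called. The difference between the sorts in these changes was 0.54 for the first step (limma adjusted p = 0.3084; without the 3 arrays 0.43, limma adjusted p = 0.6231) and -0.52 (SE 0.24) for the second (limma adjusted p = 0.6247).

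**Figure D4:**
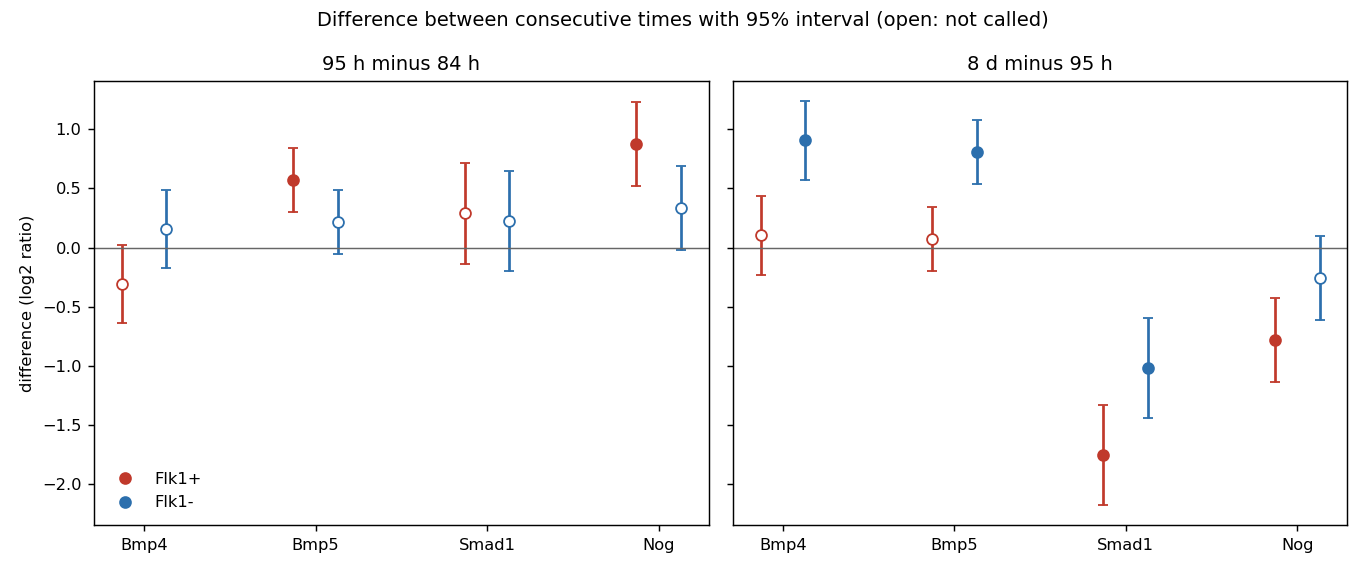
Difference in log2 ratio between consecutive times within each sort (points, with 95% intervals as whiskers) for the 4 genes, with open points for differences that were not called. Smad1 is lower at 8 d than at 95 h in both sorts, and Bmp4 and Bmp5 are higher at 8 d in Flk1- cells.

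Between 84 h and 95 h, 2 of the 4 genes were called in Flk1+ cells, Bmp5 and Nog, both higher, while 19.8% of all features were called and 11.2% called higher. In Flk1- cells none of the 4 was called, with 1.64% of all features called. Cell type markers moved in Flk1+ cells over the same step: 3 of 4 cardiac muscle genes were called higher and 1 lower, and 1 of 2 node and notochord genes was called lower, with a list median of -1.07. Of the other lists, 1 of 5 smooth muscle and fibroblast genes and 1 of 3 neural genes were higher, 1 of 5 pluripotency genes was lower, and the 7 endothelial genes held 1 higher, Kdr itself, and 1 lower. No gene of the streak, endoderm or erythroid lists was called, and the part of these markers in the Bmp5 and Nog values was not tested. These marker calls include the 84 h arrays that stood apart. In this comparison the 3451 calls over all features became 951 without the 3 arrays and 0 with only the 8 arrays compared. Between 95 h and 8 d, Smad1 and Nog were called lower in Flk1+ cells, where 22.1% of all features were called and 9.31% called lower. In Flk1- cells Bmp4 and Bmp5 were called higher and Smad1 lower, with 17.7% of all features called, 9.88% higher and 7.78% lower.
The interactions called 0.00573% of all features from 84 h to 95 h and 0.533% from 95 h to 8 d, and none of the 4 genes.

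Over the 6 groups the genes had different orders. For Bmp4 the highest mean was Flk1+ at 84 h, then Flk1- at 8 d, Flk1+ at 8 d and Flk1+ at 95 h, whose arrays overlap from one neighbour to the next. Flk1- at 95 h and then Flk1- at 84 h came below, across a gap that no array bridged, and overlapped with each other. Bmp5 was highest in Flk1+ and Flk1- cells at 8 d and Flk1+ cells at 95 h, and a gap separated these from Flk1+ at 84 h, Flk1- at 95 h and Flk1- at 84 h. Smad1 ran from Flk1+ at 95 h and 84 h through Flk1- at 95 h and 84 h to Flk1+ and Flk1- at 8 d, and Nog from Flk1+ and Flk1- at 95 h to Flk1+ at 84 h. In both, each group's arrays overlapped with those of its neighbours in the order.

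Across the 24 arrays, the Pearson correlation of Bmp4 with Bmp5 was 0.638 and that of Bmp4 with Smad1 was 0.064. The arrays share the sort and time structure and the common reference, so these describe likeness only. Among 8972 other named genes, the closest to Bmp4 were Hdac7 (r = 0.912), Fbln2 (0.898) and Hmga2 (0.893), and the closest to Bmp5 were Igfbp4 (0.917), Ptpn13 (0.911) and Stard8 (0.901). Smad1 was closest to Fgf3 (0.907), Ecd (0.890) and Tiam2 (0.884). For Nog the best were lower, with Def8 (0.813), Rbpms (0.802) and Prepl (0.801).

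The wider BMP pathway was described with a list of 66 genes, of which 36 were measured. At 84 h 10 of them were higher and 2 lower in the Flk1+ sort, and the median difference was 0.17. At 95 h 8 were higher and 1 lower (median 0.17), and at 8 d 1 was higher and 0 were lower (median -0.04). Leaving out Bmp4, Bmp5, Smad1 and Nog, the counts were 7 higher and 2 lower at 84 h, 5 and 1 at 95 h, and 1 and 0 at 8 d. Without the 3 arrays of 84 h the calls in either direction were 10 at 84 h, 10 at 95 h and 3 at 8 d. At 84 h 9 of the 12 genes called with all arrays were still called without the 3, and Acvr1, Bmp7 and Id2 were not. The list was chosen with earlier results of these data known, and its counts are a description beside the 13.5%, 2.03% and 0.373% of all features.

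Of 8 measured ligands 3 were higher in Flk1+ cells at 84 h, the third being Bmp7, with means of 0.66 ± 0.48 in Flk1+ cells and -0.03 ± 0.41 in Flk1- cells (SD, n = 4 each; difference 0.69, limma adjusted p = 0.04336, with overlap). It was 0.53 without the 3 arrays and was not called (limma adjusted p = 0.1468). At 95 h Bmp7 differed by 0.58, without a call. Bmp2, another ligand known for roles in heart and mesoderm, was not called between the sorts at any time. Receptors called at 84 h were Acvr1, a type I receptor, by 0.81 (limma adjusted p = 0.01652) and Acvr2a, a type II receptor, by 0.76 (limma adjusted p = 0.005414). Without the 3 arrays Acvr1 differed by 0.60 and lost its call (limma adjusted p = 0.1017), and Acvr2a differed by 1.15 (limma adjusted p = 0.0003831).
Eng, an endothelial co-receptor, was the gene called at 8 d. Its means there were -0.59 ± 0.47 in Flk1+ cells and -1.98 ± 0.17 in Flk1- cells (SD, n = 4 each; difference 1.39, limma adjusted p = 0.002612).

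Among 4 measured transducers only Smad1 was called in any comparison between sorts. Smad5 and Smad4 differed by -0.12 and -0.25 at 84 h and by 0.22 and 0.06 at 95 h, none called. At 84 h Smad9 had an SD of 2.88 in Flk1+ cells, against 2.37 in Flk1- cells, so its difference of -1.12 had a 95% interval of -3.22 to 0.97. Without the 3 arrays the 84 h differences of these genes changed sign. They were 0.58 for Smad5 (limma adjusted p = 0.05311), 0.18 for Smad4 and 0.37 for Smad9, none called.
Of 7 measured antagonists and modulators, 1 was called between the sorts: Fst, which encodes the activin and BMP binding protein follistatin, was lower in Flk1+ cells, with a difference of -1.70 at 84 h (limma adjusted p = 0.0008725) and -1.35 at 95 h (limma adjusted p = 0.01466). Its 84 h difference was -1.07 without the 3 arrays (limma adjusted p = 0.001177).

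Target genes carried most of the other calls, with 4 of 10 measured higher and 1 lower at 84 h and 5 higher at 95 h. The T-box factor Tbx3 differed most, with means of 2.36 ± 0.38 in Flk1+ cells and -0.00 ± 0.28 in Flk1- cells at 84 h (SD, n = 4 each; difference 2.37, limma adjusted p = 2.095e-08) and a difference of 1.99 at 95 h (limma adjusted p = 3.395e-07). Gata3, Hand1 and Msx2 were also higher at 84 h, by 2.00, 1.71 and 1.35, and at 95 h by 1.40, 1.27 and 0.71, and Msx1 by 0.68 at 95 h. Without the 3 arrays the 84 h differences were 2.34 for Tbx3, 2.16 for Gata3, 1.48 for Hand1 and 1.26 for Msx2, all called, and Msx1 was called as well (0.72, limma adjusted p = 0.007528).
The Id genes are often used as readouts of BMP signalling. Id1 differed by -0.17 at 84 h and 0.13 at 95 h and Id3 by -0.10 and 0.06, none called. Without the 3 arrays the 84 h difference of Id1 changed sign to 0.38 (limma adjusted p = 0.3711), and that of Id3 was -0.05, neither called. Id2 was lower in Flk1+ cells at 84 h, with a difference of -0.93 (limma adjusted p = 0.02904), but it was -0.46 and not called without the 3 arrays (limma adjusted p = 0.4165).

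The gap between sorts in 3 target genes changed from 95 h to 8 d by the interaction test. The change was -2.58 for Tbx3 (limma adjusted p = 1.326e-05), -1.66 for Hand1 (limma adjusted p = 0.01905) and -1.38 for Gata3 (limma adjusted p = 0.04512). Hand1 reached a mean of 2.38 ± 0.15 in Flk1- cells at 8 d, against 0.84 ± 0.42 at 95 h (SD, n = 4 each). Tbx3 fell by 2.67 in Flk1+ cells between 95 h and 8 d.

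**Figure D5:**
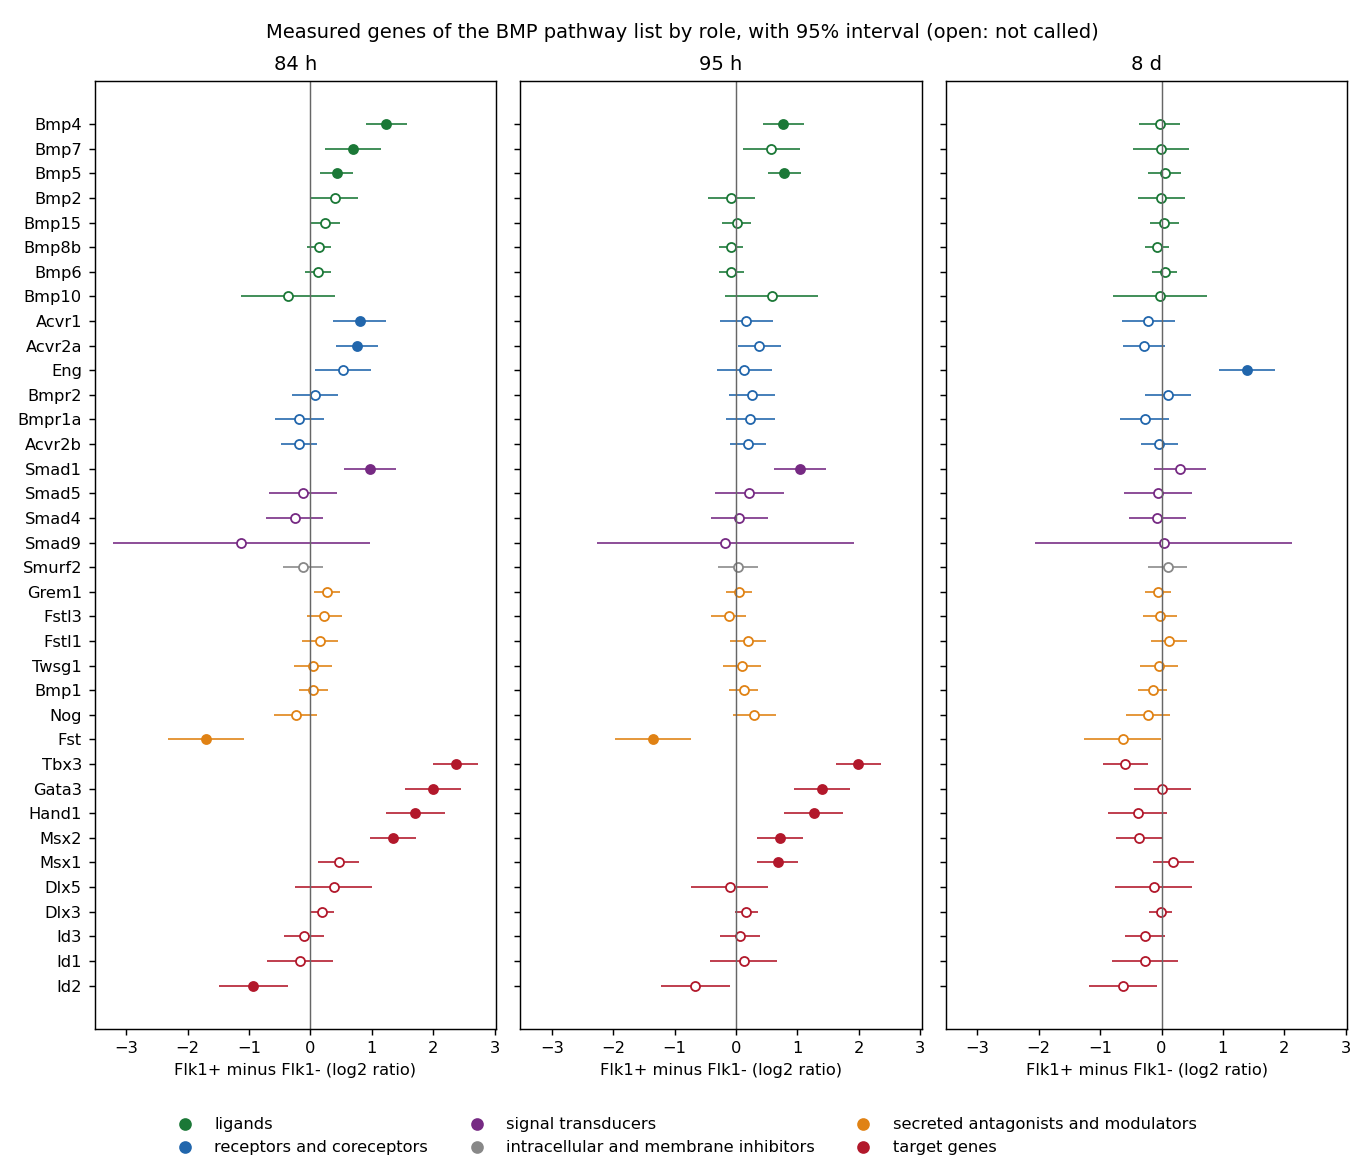
Flk1+ minus Flk1- difference in log2 ratio of the 36 measured BMP pathway genes at 84 h, 95 h and 8 d, coloured by role, with 95% intervals; filled points were called and open points were not. Tbx3, Gata3 and Hand1 lie furthest to the right at 84 h and 95 h, and Fst furthest to the left among called genes.

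Markers of other cell types moved with the sort at the early times. The mean level of 5 pluripotency genes per array lay between 0.97 and 1.72 in the Flk1+ sort at 84 h, against 2.31 to 2.48 for Flk1-, and 3 of 5 were called lower. At 95 h it lay between 0.89 and 1.18 in the Flk1+ sort, against 1.61 to 2.06 for Flk1-, and 1 of 5 was called lower. The mean level of 4 primitive streak and nascent mesoderm genes per array lay between 1.92 and 2.14 in the Flk1+ sort at 84 h, against 0.85 to 1.61 for Flk1-, and 2 of 4 were called higher, with 0 of 4 called at 95 h. Of 2 node and notochord genes 1, Foxa2, was called lower at each of these times. The other, Shh, was not called and did not share this drop. Its 84 h mean was 1.21 ± 1.36 for the Flk1+ sort, against 0.15 ± 0.15 for Flk1-. Its 95 h means were 0.22 and 0.21. The list medians of -0.45 at 84 h and -1.19 at 95 h therefore owe their sign to Foxa2 alone. Of 5 endoderm genes 1 was higher and 2 were lower at 84 h, and 1 was lower at 95 h. At each of both times 1 of 3 neural genes was lower and 1 of 4 cardiac muscle genes was higher, Nkx2-5 at 84 h and Myl7, by 1.44, at 95 h. Besides Kdr, the endothelial list held 1 called gene, Flt1, lower at 95 h, and no smooth muscle, fibroblast or erythroid gene was called. The 84 h marker counts include the 3 arrays that stood apart. Over all features 13.5% were called at 84 h and 2.03% at 95 h. These lists moved beside the higher Bmp4, Bmp5 and Smad1 of Flk1+ cells, and their part in these differences was not tested.

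At 8 d, when the 4 genes were not called, the mean level of the 7 endothelial genes per array lay between -0.14 and 0.15 in the Flk1+ sort, against -0.68 to -0.64 for Flk1-. That mean includes Kdr, the gene used for sorting, so part of the gap follows from the sort. Of the 7 genes 2 were called higher, Kdr and Cdh5, and the median difference over the list was 0.22. Also at 8 d, 2 of 5 endoderm genes and 1 of 2 node and notochord genes were lower in Flk1+ cells. Beside the rise of Bmp4 and Bmp5 and the fall of Smad1 in Flk1- cells from 95 h to 8 d, 4 of 5 pluripotency genes and 4 of 4 streak genes were called lower and 2 of 5 smooth muscle and fibroblast genes higher. Of 3 erythroid genes 2 were higher, and of 4 cardiac muscle genes 2 were higher, Myl7 by 1.51 and Tnnt2 by 1.11, and 1 lower. The endothelial list held 2 higher and 1 lower, the endoderm list 1 higher, Ttr by 1.87, and 1 lower, and the neural list 1 each way. In Flk1+ cells, beside the fall of Smad1 and Nog, 3 of 5 pluripotency and 4 of 4 streak genes were lower and 3 of 5 smooth muscle and fibroblast genes higher. There 2 of 3 erythroid genes, 2 of 7 endothelial genes and 1 of 3 neural genes were also higher, and the cardiac muscle and endoderm lists each held 1 higher and 1 lower. Neither node and notochord gene was called in these 2 comparisons. Over all features 22.1% were called from 95 h to 8 d in Flk1+ cells and 17.7% in Flk1- cells. Between the sorts at 8 d 0.373% were called. The marker counts are a description beside these shares, and the part of the marker changes in the 4 genes' values was not tested.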

How the data were processed

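RNA of 24 sorted samples was measured on two-colour Agilent mouse development arrays, 4 per group. The authors deposited 1 log ratio per probe and array, read here as log2 of Cy5 over Cy3; log base, direction, feature extraction, background correction and normalization are not given in the sources used here. The table held values from -6.42 to 5.33 with 0 missing. Per the labels, sample RNA (Qiagen RNeasy) and pup RNA (guanidinium) were amplified before labelling. Array medians deviated from their overall median of 0.0879 by up to 0.109, over the tolerance of 0.1, and the median of every array was then set to 0. The platform annotation listed 1 gene for 11813 of the 20280 probes, several for 559 and none for 7908; Entrez identifiers of 11782 matched the RefSeq gene table and 0 symbols changed. Probes of 1 gene were averaged, giving 17440 features.

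One limma fit (lmFit and eBayes; limma 3.58.1, R 4.3.3, data.table (version 1.17.8); figures with Python 3.11.15 and matplotlib 3.10.9) held all 24 arrays with a mean per group, with 18 residual and 3.41 prior degrees of freedom. There were 9 comparisons, each Benjamini-Hochberg adjusted over all features. The test was checked on simulated data with independent errors and the same spread in every group. That check does not cover the uneven spread or the pairing of these arrays. Same-numbered Flk1+ and Flk1- arrays deviated together at 95 h (correlations 0.11 to 0.42) and 8 d (0.15 to 0.44). Their numbers were therefore taken to pair those arrays, although the labels do not say what the same number shares. The main fit has no block for this. At 84 h the correlations ran from -0.13 to 0.53 and across times from -0.17 to 0.07, and the numbers were not taken to pair. Array number limits the precision. The rule for named genes took the 4 genes in every comparison, any measured gene of the pathway list, Kdr, and the 3 genes most correlated with each of the 4. Members and lists were chosen with earlier results of these data known. Alternatives were median setting, quantile normalization, single probes, fits on the arrays compared, array weights, the replicate block, and leaving out arrays.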

Additional observations from a re-analysis of the deposited data

How the results depend on the processing

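Of 649 values of the 4 genes under the alternatives, 606 kept their direction and their side of the threshold, 20 lost a call, 7 gained one and 16 changed sign. Bmp4, Bmp5 and Nog have a single probe each. For them the settings that choose a probe repeat the main differences and could not change a sign. Values as deposited and quantile normalization changed none of 36 each. For Smad1, the probe with the larger SD, probe 3116, gave 0.69 at 84 h and 1.12 at 95 h, without a call, and probe 12154 alone turned its 95 h minus 84 h difference in Flk1+ cells to -0.0225 and its interaction to -0.31.

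Fitting only the arrays compared (a subset fit) kept the differences and lost calls for Bmp5 (0.43) and Smad1 (0.98) at 84 h, Bmp4 (0.77) and Smad1 (1.04) at 95 h, and Bmp5 (0.58) and Nog (0.88) between 84 h and 95 h in Flk1+ cells; it has fewer residual degrees of freedom. It called the Bmp5 interaction from 95 h to 8 d (-0.73). Array quality weights lost Bmp4 (0.61) and Smad1 (0.78) at 95 h and Bmp5 (0.41) between 84 h and 95 h in Flk1+ cells, called Smad1 at 8 d (0.36), Smad1 between 84 h and 95 h in Flk1- cells (0.57) and the Bmp5 interaction to 8 d (-0.74), and turned Smad1 between 84 h and 95 h to -0.0382 in Flk1+ cells and -0.61 in the interaction. Leaving out the outlying 3 arrays of 84 h, the Bmp5 rise in Flk1+ cells was 0.40 and lost its call, Smad1 there was -0.0692 and its interaction -0.37, and the interactions to 8 d were called for Bmp4 (-0.80) and Bmp5 (-0.73). Those arrays do not enter the interactions to 8 d, whose values stayed the same while the SE fell to 0.19 for Bmp4 and 0.15 for Bmp5. The cause of the other changes was not tested.

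With single arrays left out, the Bmp5 difference at 84 h lay between 0.34 and 0.57, Bmp4 at 8 d between -0.11 and 0.0234, the Smad1 interaction to 95 h between -0.075 and 0.23, and the Bmp5 interaction to 8 d between -0.82 and -0.67. The replicate block, whose pairing was taken to hold at 95 h and 8 d only, changed no call of the 4 genes. With it the pathway list had 2 calls at 8 d in place of 1, and 5 in place of 3 in the interaction to 8 d. The block was also fitted at 84 h and across times, where the numbers were not taken to pair. Its counts there describe that fit only.

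Calls in the pathway list were 12 at 84 h, 9 at 95 h and 1 at 8 d, against 5, 5 and 3 in the subset fit, 5 at 95 h and 9 at 8 d with array quality weights, and 3 at 8 d without the 3 arrays. Between 84 h and 95 h in Flk1+ cells the 6 calls became 3 with quantile normalization, 0 in the subset fit, 2 with weights or without the 3 arrays, and 3 to 14 with single arrays left out (14, 3 and 11 without Flk1+ 84 h array 1, 2 or 3). In Flk1- cells the 1 call became 0 in the subset fit, 7 with weights, 2 with the block, 4 without the 3 arrays and 1 to 3 with single arrays left out (3 without Flk1- 95 h array 1). From 95 h to 8 d the 10 calls in Flk1- cells became 16 with weights, and the 3 interactions 5 in the subset fit or with weights, 8 without the 3 arrays and 1 without Flk1+ 8 d array 1 or 2.

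Over all features the 2352 calls at 84 h became 1304 with quantile normalization, 347 in the subset fit, 3625 with weights, 4386 with the block and 1176 without the 3 arrays, and the 65 at 8 d became 218, 952, 2332, 139 and 172 in that order. The 4386 rests on a pairing that was not taken to hold at 84 h. The 354 at 95 h became 135 in the subset fit, 545 with the block and 698 without the 3 arrays. With single arrays left out they spanned 1017 to 4550 at 84 h, 286 to 364 at 95 h and 31 to 54 at 8 d. The 3451 calls between 84 h and 95 h in Flk1+ cells became 1625 with quantile normalization, 0 in the subset fit, 804 with weights and 951 without the 3 arrays. The 286 in Flk1- cells became 70, 2156 and 668 with the last 3 of these settings, and without single arrays they spanned 1637 to 5358 and 93 to 449. The later step's 3861 calls in Flk1+ and 3080 in Flk1- cells became 6059 and 6692 with weights and 5864 and 5087 without the 3 arrays. The 93 interaction calls became 161, 288, 173 and 314 in the subset fit, with weights, with the block and without the 3 arrays.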

Other observations

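Among other genes of the BMP pathway list, some changed in both sorts between 95 h and 8 d. Fstl1, which encodes a follistatin-like secreted protein, gained 1.99 in Flk1+ and 2.08 in Flk1- cells (limma adjusted p = 1.161e-09 and 7.955e-10), and Id2, a BMP-responsive inhibitor of helix-loop-helix factors, gained 1.59 in Flk1+ and 1.56 in Flk1- cells (limma adjusted p = 0.0001688 and 0.0002545). Smad1 was the one transducer called in either sort over that interval, and it was lower in both. The ligand gene Bmp8b was lower at 8 d in both, with differences of -0.43 in Flk1+ and -0.44 in Flk1- cells.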
